A study of Equus caballus with 8 samples.

Results

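The genes described here are those of interleukin-11 (IL-11) and the cytokine family that signals through gp130: the ligand genes IL11, IL6 and LIF, the receptor genes IL6ST, IL6R, LIFR, OSMR and IL11RA, the transcription factor gene STAT3 and the inhibitor gene SOCS3. They were chosen by gene symbol, with earlier results of these data known, and 9 of the 10 had a row among the 15266 named genes. IL11RA was not analysed here. RNA was sequenced from BM-MSCs, the mesenchymal stem cells that adhere and grow out of bone marrow, here taken from the sternum of 4 horses labelled D, J, L and W. The marrow of each horse was divided, so that 1 culture stayed untreated and its partner was grown with human recombinant TGF-β2 at 1 ng/ml. The labels place the treatment from isolation until passage 3 or 4, whereas the methods describe it as lasting 3 passages. Both arms were grown in low-glucose DMEM with fetal bovine serum, and the methods add basic fibroblast growth factor to the medium of both. Each group thus holds 1 culture per horse, and p-values measure the spread between these 4 horses.

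Cytokines of this family bind a private receptor and then gather gp130, the shared signal-transducing subunit encoded by IL6ST. IL-6 and IL-11 bind IL-6 receptor alpha and IL-11 receptor alpha and signal through pairs of gp130, while LIF signals through gp130 joined to the LIF receptor and oncostatin M through gp130 joined to the LIF or the oncostatin M receptor. Janus kinases on the receptor then phosphorylate STAT3, which moves to the nucleus and induces, among others, SOCS3, an inhibitor that binds gp130 and dampens the signal. Marrow stromal cells are a known source of IL-6, IL-11 and LIF, and IL-11 is a known TGF-β-induced product of fibroblasts.

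Values are normalized counts, reads scaled by a single size factor per library, and they are not divided by transcript length, so levels are compared between libraries and not between genes. Between 39184554 and 57228675 reads were counted per library, and 3 reads corresponded to 2.02 to 3.60 normalized counts. Of the genes known to respond to TGF-β, SKIL, TGFBI and CTGF were higher after treatment, and SMAD7 did not pass the test. The 5 MSC markers CD44, ITGB1, THY1, NT5E and ENG were read in every library, with sums of 138766 to 309522 normalized counts in untreated and 150975 to 250162 in treated cells, and THY1 was the only one called, with a log2 fold change of -2.21. The leukocyte gene PTPRC had 1.74 to 109.7 normalized counts in untreated and 1.19 to 23.0 in treated libraries, and CD3E was at 0 in 6 of the 8 libraries. ITGB2, another leukocyte gene, was called lower (log2 fold change -1.48). Sums of the 3 macrophage markers with a row (CD68, CSF1R and CD163) ran from 466 to 2439 and from 363 to 689. The endothelial markers with a row, CDH5 and KDR, summed to 7.10 to 26.3 in untreated and 30.0 to 55.7 in treated libraries, and KDR was called higher (log2 fold change 2.27). The part of leukocytes, macrophages and endothelial cells in the results was not tested, and in bulk RNA fewer cells of a type and less RNA per cell cannot be told apart.

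TGF-β2-treated cells held more IL11 and LIF RNA and less RNA of the receptor subunits IL6ST, OSMR and LIFR and of SOCS3. A gene counted as differentially expressed (called) when a limma model with the horse as a block gave an adjusted p under 0.05 and a log2 fold change beyond 1 in either direction. All 9 genes passed the filter, which asked for 10 normalized counts in 4 or more of the 8 libraries, IL6 doing so with its 4 untreated libraries and 1 treated one. Of the 9, 2 were called higher, where 6.83% of the 14907 tested genes were, and 4 were called lower, against 7.31%. IL6, IL6R and STAT3 were not called. Since the genes were chosen with earlier results of these data known, these counts and shares are given as a description. The median log2 fold change of the 9 genes was -1.25, and that of all tested genes 0.01. In 2 genes (IL11 and LIF) all 4 treated libraries lay above all untreated ones, as in 13.9% of tested genes, and in 4 (IL6ST, OSMR, STAT3 and SOCS3) they lay below, again as in 13.9%. Within horses, IL11 and LIF were higher in all 4, as were 26.3% of tested genes, and 6 genes (IL6, IL6ST, LIFR, OSMR, STAT3 and SOCS3) were lower in all 4, against 25.6%.

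Other tests moved these counts by 1 gene at most. Leaving the horse out of the limma model gave 2 higher and 3 lower, where 5.59% and 5.87% of tested genes were called. DESeq2 on the recovered reads called 2 higher and 5 lower with the horse, against 7.46% and 8.26% of tested genes, and 2 higher and 3 lower without it, against 6.27% and 7.49%. For edgeR the counts were 1 higher and 4 lower, against 6.64% and 7.17%.

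**Figure D1:**
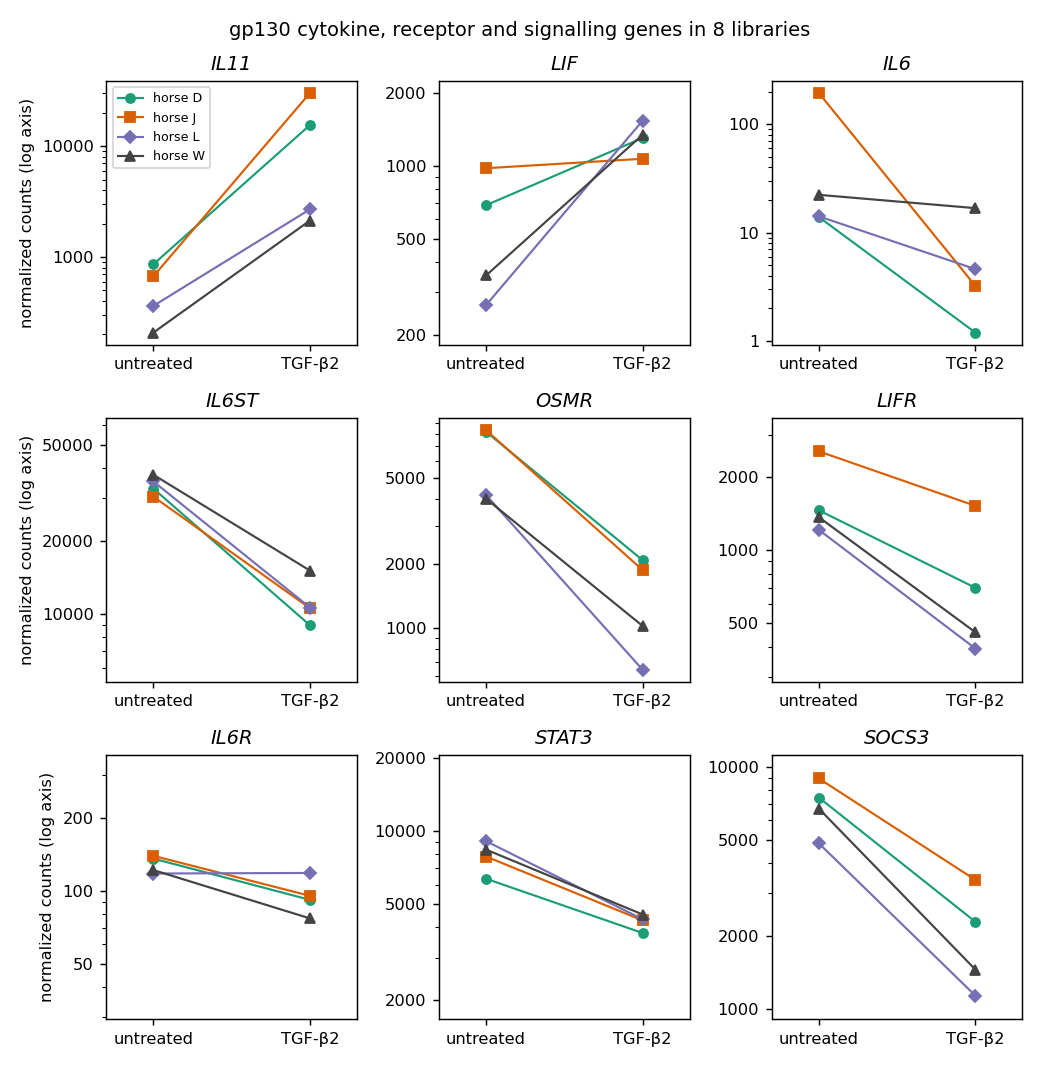
Normalized counts (log axis) of the 9 genes in the untreated and TGF-β2-treated library of each horse, 1 line per horse. IL11 rises in all 4 horses, from at most 858 to at least 2131, while IL6ST falls from at least 30498 to at most 15092.

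IL11, whose product is a cytokine of stromal cells with roles in haematopoiesis and fibrosis, had the largest change of the 9 genes. The untreated libraries of horses D, J, L and W held 858, 667, 361 and 207 normalized counts of IL11. After TGF-β2 treatment the same horses had 15547, 30291, 2694 and 2131. Every treated library lay above every untreated one, and the lowest treated value was 2.48 times the highest untreated value. Mean IL11 was 523 ± 294 normalized counts without and 12666 ± 13284 with TGF-β2 (SD, n = 4), a ratio of 24.2. In the limma model log2 IL11 rose by 3.98 (standard error 0.42, 95% interval 2.93 to 5.04, adjusted p = 0.00366). By log2 fold change IL11 ranked 107 of the 14907 genes.

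The horses spread more widely in IL11 among treated than among untreated cultures. Horses D and J, with the highest untreated levels, also had the highest treated levels and the largest changes, 4.18 and 5.50 on the log2 scale against 2.90 in L and 3.36 in W. In single horses the ratio of treated to untreated ran from 7.46 in L to 45.4 in J. The highest IL11 value was 4.14 times the lowest among untreated and 14.2 times the lowest among treated libraries. Of the reads of IL11 in treated libraries most were in horses D and J, and the standard deviation of that group exceeded its mean. IL11 stayed called with any single horse left out, with log2 fold changes from 3.48 without J to 4.35 without L.

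The profile of IL11 over the 8 libraries was compared with that of every tested gene as the root mean square difference of log2 values, each centred on its own mean. The 5 nearest genes were FAM71E2, MEGF10, PODXL, SLC26A9 and CYTIP, and since this choice used the same libraries, their higher level in treated cells follows from it and is given as a description. FAM71E2 differed from IL11 by 0.23, whereas MEGF10 was next at 0.99, PODXL followed at 1.00, SLC26A9 at 1.04 and CYTIP at 1.10, and the median over all genes was 2.39. The untreated libraries of horses D, J, L and W held 83.5, 74.7, 31.1 and 17.2 normalized counts of FAM71E2, and the treated ones 1908, 3577, 215 and 173. In each library FAM71E2 amounted to between 7.98% and 12.3% of the normalized counts of IL11. This percentage also depends on the lengths of both transcripts, so it is compared between libraries only. Its log2 fold change was 4.02, and those of MEGF10, PODXL, CYTIP and SLC26A9 were 3.20, 3.17, 3.51 and 2.73. None of these 4 ranked the horses as IL11 did in both groups.

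FAM71E2, now named GARIN5B, lies next to IL11 on the chromosome in the RefSeq annotation of the TB-T2T horse assembly. The genes around IL11 were examined after these values were seen. Beyond FAM71E2 lies COX6B2, listed as LOC102149678, which rose by 1.84 on the log2 scale, from 6.35 ± 4.17 to 23.3 ± 7.25 normalized counts (SD, n = 4, limma, adjusted p = 0.0296). Its untreated values, 4.35, 2.69, 12.2 and 6.09 in horses D, J, L and W, were of few reads. COX6B2 thus passed the filter through its treated libraries and untreated L, and its change is given as a description. On the other side of IL11, TMEM190 averaged 15.3 ± 3.09 without and 39.7 ± 21.4 normalized counts with TGF-β2 (log2 fold change 1.17, limma, adjusted p = 0.0508). TMEM238, the gene after it, was at 0.60 on the same scale (limma, adjusted p = 0.0472), short of the fold change threshold. These 4 neighbours were higher after treatment in all 4 horses, as were 26.3% of tested genes. KMT5C and RPL28, the third gene on either side, had log2 fold changes of 0.06 and 0.08, with adjusted p from limma of 0.736 and 0.633. The strand setting of the read counting is not given in the sources used here, and whether reads of IL11 and its neighbours overlap was not tested.

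**Figure D2:**
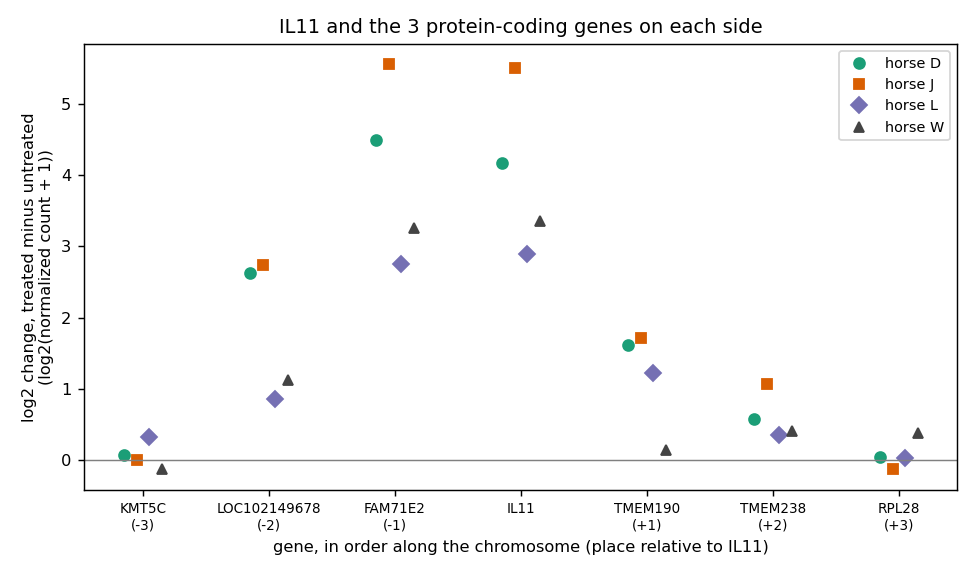
Log2 change (treated minus untreated, log2(normalized count + 1)) in each horse for IL11 and the 3 protein-coding genes on each side, in their order along the chromosome and not to distance. FAM71E2 follows IL11 horse by horse (5.56 and 5.50 in horse J, 2.75 and 2.90 in horse L), while those of KMT5C and RPL28 run from -0.13 to 0.37.

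LIF, which encodes leukemia inhibitory factor, a cytokine that acts on stem cells, bone and inflammation, was the other ligand gene called higher. Its untreated values were 686 normalized counts in horse D, 976 in J, 266 in L and 352 in W. The treated values were 1301, 1067, 1534 and 1342. The groups did not overlap, but by little, since the lowest treated and the highest untreated library were both from horse J and differed by a ratio of 1.09. The ratio of the highest to the lowest LIF value was 3.67 among untreated and 1.44 among treated cultures. The change was largest in L and W, 2.52 and 1.93 on the log2 scale, and smallest in J, 0.13. In IL11 the order was the opposite, with the smallest changes in L and W.

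Treatment raised mean LIF from 570 ± 326 to 1311 ± 191 normalized counts (SD, n = 4), and the log2 fold change was 1.38 (standard error 0.40, 95% interval 0.39 to 2.37). The adjusted p from limma was 0.0490, close to the threshold, and 0.0350 without the horse in the model. LIF was not called with horse D, L or W left out, where the adjusted p from limma was 0.118, 0.119 and 0.182. It was also not called by edgeR's quasi-likelihood test on the recovered reads (adjusted p = 0.0599).

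IL6, the gene of the acute-phase and inflammatory cytokine IL-6, had few reads. The untreated libraries of horses D, J, L and W held 13.9, 195, 14.1 and 22.3 normalized counts, from 16, 289, 15 and 22 reads. Treated libraries held 1.19, 3.21, 4.60 and 16.8, from 1, 3, 4 and 14 reads. The untreated library of horse J stood far above all others, and the treated library of W lay within the untreated range. The ratio of untreated to treated was 60.6 in horse J (exact 95% interval 20.52 to 295.5) and 11.7 in D (1.82 to 490.1). In L and W the intervals, 0.98 to 12.7 and 0.65 to 2.80, included 1. PCR copies are not independent molecules, so these intervals hold counting error alone.

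IL6 was lower after treatment in 4 of 4 horses, but the difference did not pass the test. Its log2 fold change was -2.53 (standard error 0.85, limma, adjusted p = 0.0731). The fitted value depends on the pseudocount at this depth, and was -1.88 with a pseudocount of 5. Without horse J it was -1.53 (limma, adjusted p = 0.0793), and the untreated mean was 16.8 instead of 61.2 normalized counts. DESeq2 with a term for horse called IL6 lower (adjusted p = 0.0132). The untreated library of horse J also held 110 normalized counts of the pan-leukocyte gene PTPRC, 112 of the T cell gene CD3E and 2437 of CD68. The other untreated libraries held at most 41.5, 16.2 and 740. Among untreated libraries J was also highest in the leukocyte gene ITGAL, at 53.9 against 21.3 to 40.5. The same held for the endothelial gene KDR, at 14.8 against 1.01 to 4.71. Some other markers were not highest there. The leukocyte gene ITGB2 had 71.4 in untreated J and 109.3 in untreated L, the macrophage gene CSF1R had 1.35 in untreated J and 7.83 to 147.0 in the other untreated libraries, and CD163 was listed at 0 in untreated J and at 7.83 to 45.7 in the others. The part of these cells in the level of IL6 was not tested.

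IL6ST, the gene of gp130 itself, fell in all 4 horses and varied little among them. Untreated libraries held 32918, 30498, 35235 and 37536 normalized counts in horses D, J, L and W. Treated libraries held 8976, 10552, 10624 and 15092. The highest treated library had less than the lowest untreated one by a ratio of 2.02. The mean fell from 34047 ± 3025 to 11311 ± 2633 normalized counts (SD, n = 4), so that 33.2% of the untreated level remained. On the log2 scale the fold change was -1.61 (standard error 0.12, limma, adjusted p = 0.00170), and single horses ranged from -1.87 in D to -1.31 in W. The ratio of the highest to the lowest untreated library was 1.23.

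OSMR, which encodes the oncostatin M receptor, had the largest decrease of the genes called. Untreated horses D, J, L and W had 8175, 8320, 4157 and 3999 normalized counts, and their treated cultures 2072, 1865, 643 and 1026. Horses D and J were above L and W in both groups, yet every treated library lay below every untreated one. The mean fell from 6163 ± 2409 to 1402 ± 679 (SD, n = 4). Its log2 fold change was -2.20 (standard error 0.14, limma, adjusted p = 0.00135), and no other of the 9 genes had a lower p. Single horses ranged from -2.69 in L to -1.96 in W on the log2 scale.

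LIFR, the gene of the receptor for LIF, fell as well. The untreated values were 1463, 2563, 1216 and 1371 normalized counts in horses D, J, L and W, and the treated ones 700, 1527, 393 and 459. Horse J was highest in both groups, and its treated library lay above the untreated ones of D, L and W, so that the groups overlapped. The mean was 1653 ± 615 in untreated and 770 ± 522 in treated cells (SD, n = 4). The log2 fold change of LIFR was -1.25 (standard error 0.17), lower in 4 of 4 horses (limma, adjusted p = 0.00681). Without the horse as a block the adjusted p was 0.0682, and LIFR was not called. In the RefSeq annotation LIFR and OSMR are neighbours, with 0 protein-coding genes between them.

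IL6R, which encodes the receptor that binds IL-6 and, once shed, lets it act on other cells, had low and even values. They were 136, 139, 118 and 122 normalized counts in untreated horses D, J, L and W, and 91.7, 95.3, 118 and 76.9 after treatment. Horse L held nearly the same level in both cultures, while D, J and W were lower after treatment. The log2 fold change of IL6R was -0.44, with a 95% interval from -0.91 to 0.03 (limma, adjusted p = 0.131), so the interval held both no change and a decrease short of the fold change threshold.

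STAT3, the transcription factor gene, was lower after treatment in all 4 horses but short of the fold change threshold, which lay within its interval. Its untreated values were 6346, 7837, 9070 and 8371 normalized counts in horses D, J, L and W, and its treated values 3788, 4269, 4316 and 4517. The groups did not overlap. The log2 fold change was -0.90 (standard error 0.09, 95% interval -1.11 to -0.68), and the adjusted p from limma was 0.00290. The treated libraries were nearly equal, with a ratio of 1.19 between the highest and the lowest.

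SOCS3, the feedback inhibitor, fell further. Untreated libraries held 7456, 8940, 4825 and 6714 normalized counts in horses D, J, L and W, and treated ones 2288, 3407, 1134 and 1452. Every treated library was below every untreated one, and in both groups J was highest and L lowest. The mean went from 6984 ± 1711 to 2070 ± 1015 (SD, n = 4), leaving 29.6% of the untreated level. The log2 fold change of SOCS3 was -1.85 (standard error 0.15), with single horses from -2.21 in W to -1.39 in J (limma, adjusted p = 0.00207).

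**Figure D3:**
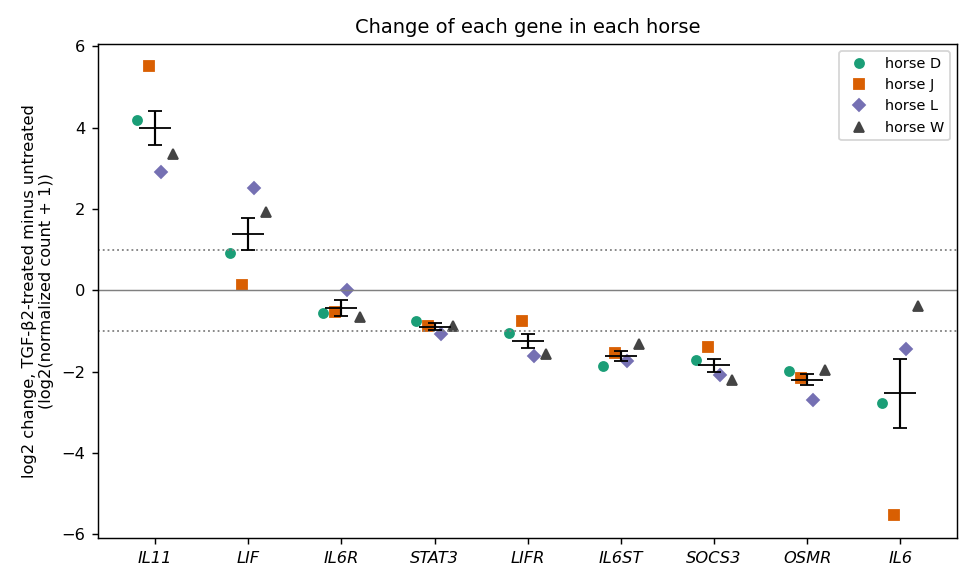
Log2 change of each gene in each horse (symbols) with the limma log2 fold change and its standard error (black bars), on the scale of log2(normalized count + 1). Dotted lines mark the fold change threshold of 1 in either direction. The changes of IL6ST, OSMR and SOCS3 lie close together, while IL6 runs from -5.54 in horse J to -0.39 in horse W.

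The sizes of these decreases were compared within horses, which does not require transcript lengths. OSMR fell more than its partner IL6ST in 4 of 4 horses, by a mean of -0.58 ± 0.36 on the log2 scale (SD, n = 4). It also fell more than its neighbour LIFR in 4 of 4, by -0.94 ± 0.43. SOCS3 had a larger decrease than STAT3 in every horse, with a mean difference of -0.95 ± 0.33. The log2 change of LIFR minus that of IL6ST was 0.36 ± 0.53, negative in 1 horse and positive in 3, and SOCS3 minus IL6ST was -0.24 ± 0.50. IL11 rose more than LIF in 4 of 4 horses, by 0.37 in L to 5.37 in J. With 4 horses an exact sign-flip test, two-sided, cannot go below p = 0.125, so this test could not place any of the 7 differences computed under 0.05.

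The wider pathway was covered by 7 lists with 63 genes, of which 52 had a row and were tested. None was called higher and 5 were called lower in limma with the horse, where 6.83% and 7.31% of all tested genes were called. At an unadjusted p under 0.05, 6 were higher and 19 lower, where 22.4% of all tested genes were higher and 21.9% lower. DESeq2 with the horse called 1 higher and 7 lower, against 7.46% and 8.26% of all tested genes. DESeq2 without it called 0 and 9, against 6.27% and 7.49%, and edgeR 0 and 5, against 6.64% and 7.17%. The median log2 fold change of the 52 genes was -0.18. Of the other ligand genes, 0 of 4 were called in limma, with 2 higher at an unadjusted p under 0.05. CLCF1 and CNTF had log2 fold changes of 0.29 and 0.45, with adjusted p from limma of 0.163 and 0.157. OSM, the ligand gene of the oncostatin M receptor and a neighbour of LIF in the annotation, had 13.01 ± 14.5 and 32.9 ± 8.81 normalized counts, and its log2 fold change was 1.75 (adjusted p = 0.0816, limma). DESeq2 with the horse called OSM higher. Its untreated values were low, at 5.22 normalized counts in horse D, 9.42 in L and 3.04 in W, but 34.3 in J. It thus passed the filter through its treated libraries and untreated J, and in horse J it did not rise (log2 change -0.09). IL27RA, the other receptor gene tested, had a log2 fold change of -0.58 (limma, adjusted p = 0.0463).

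Among the kinases and further STATs, limma called 1 of 9 lower, edgeR 1, DESeq2 with the horse 2 and DESeq2 without it 3. Of all tested genes these tests called 7.31%, 7.17%, 8.26% and 7.49% lower. At an unadjusted p under 0.05 limma had 6 of 9 lower, against 21.9% of all tested genes. JAK2, a kinase bound to gp130, fell from 4920 ± 2467 to 1629 ± 91.1 normalized counts (SD, n = 4, log2 fold change -1.48, limma, adjusted p = 0.0116). JAK2 was not called without horse W. JAK1, the kinase with the leading part at gp130, and TYK2 had log2 fold changes of -0.37 and -0.30, with adjusted p from limma of 0.0317 and 0.0698. All 9 genes of this list had a negative log2 fold change, down to -1.48, with a median of -0.37 against 0.01 for all tested genes.

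The inhibitor list, which held the other SOCS genes and genes of PIAS proteins and phosphatases, had 0 of 14 genes called in limma. Of all tested genes limma called 6.83% higher and 7.31% lower. At an unadjusted p from limma under 0.05, 1 gene of the list was higher and 4 were lower (22.4% and 21.9% of all tested genes). SOCS5, SOCS2 and PTPN1, the genes with its highest mean counts, had log2 fold changes of -0.60, 0.02 and -0.29, with adjusted p from limma of 0.0398, 0.948 and 0.0983. SOCS1, named after its values were seen, had 243 ± 358 normalized counts in untreated cells, with 779 in horse J, and 33.2 ± 12.1 in treated cells (SD, n = 4). Its log2 fold change of -1.75 had an adjusted p from limma of 0.0867, and DESeq2 called it lower with and without the horse. SOCS1 fell in horses D, J and L, by up to -3.90 on the log2 scale in J, but not in W (0.12). None of the 5 adaptors to the MAPK branch was called by limma, DESeq2 or edgeR. Of all tested genes these tests called 6.27% to 7.46% higher and 7.17% to 8.26% lower. At an unadjusted p from limma under 0.05, 2 adaptors were higher. PTPN11, SHC1 and GRB2 had log2 fold changes of -0.05, -0.30 and 0.26. Of the proteases that shed IL-6 receptor, ADAM10 had a log2 fold change of -0.51 (adjusted p = 0.0210, limma) and ADAM17 one of 0.04.

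Of 17 genes known to respond to STAT3, limma called 4 lower and 0 higher, against 7.31% and 6.83% of all tested genes. At an unadjusted p under 0.05, 7 were lower and 1 higher, against 21.9% and 22.4%. LRG1, which encodes a secreted glycoprotein of the acute-phase response, fell from 260 ± 100.1 to 29.3 ± 7.18 normalized counts (SD, n = 4, log2 fold change -3.04, limma, adjusted p = 0.00135). ZFP36, the gene of a protein that destabilizes cytokine mRNAs, fell from 3134 ± 510 to 579 ± 108, with a log2 fold change of -2.44 (adjusted p = 0.00100, limma). FOS and JUNB, which encode subunits of the transcription factor AP-1, had log2 fold changes of -2.18 and -1.47, with adjusted p from limma of 0.0114 and 0.00605. These last 3 are also induced early by serum and many other signals. FOS was not called without horse W. In all 4 genes the treated libraries lay below the untreated ones, as in 7 of the 17 genes of the list and 13.9% of all tested genes. The 3 others with the highest mean counts, CCND1, TIMP1 and VEGFA, had log2 fold changes of 0.33, 0.19 and 0.24, and none passed the test. The median of the 17 genes was -0.17.

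**Figure D4:**
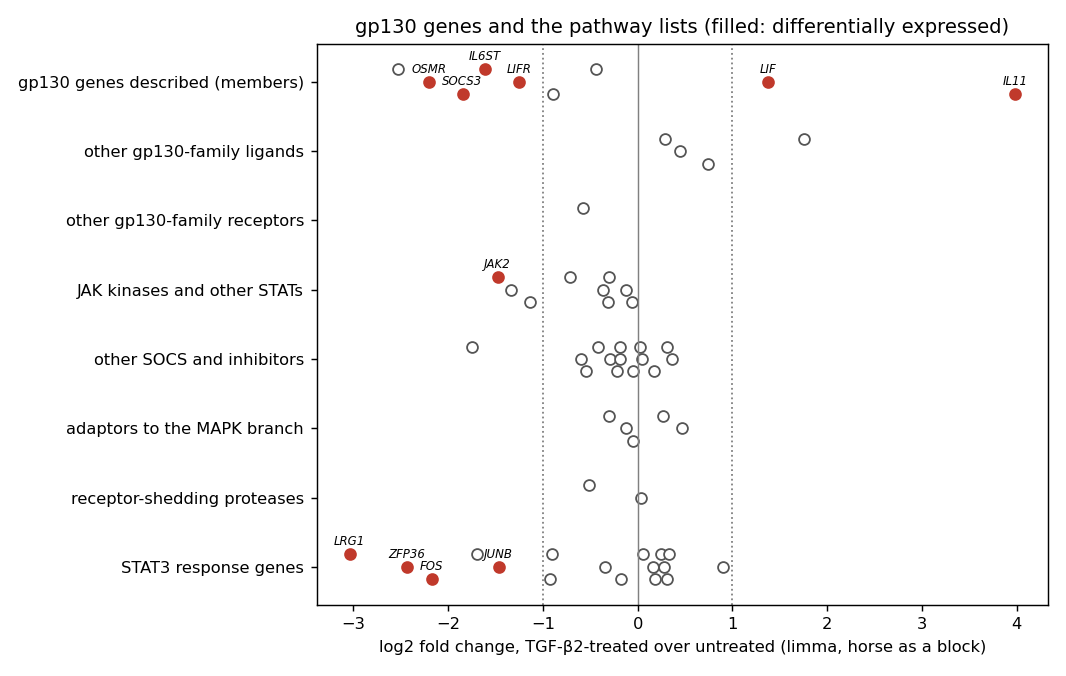
Log2 fold change (limma, horse as a block) of the 9 gp130 genes and of the 52 tested genes of the 7 pathway lists, 1 circle per gene. Filled circles are differentially expressed genes, and dotted lines mark the fold change threshold of 1. Only IL11 and LIF are filled on the right, and 5 list genes (JAK2, LRG1, ZFP36, FOS and JUNB) are filled on the left.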

How the data were processed

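Total RNA of 8 BM-MSC cultures was poly(A)-selected and sequenced. The authors used Trimmomatic 0.36 for trimming and STAR 2.5.2b for alignment to EquCab 3.0, counted unique hits with featureCounts (Subread 1.5.2) and used DESeq2. They deposited normalized counts, a signal that is each gene's count divided by a size factor per library. The 15267 rows included 1 without a gene name (0.0281% to 0.0531% of reads), which was left out. Low values were whole multiples of 1 step per library, and with a tolerance of 0.01 reads 100% of values gave whole reads, which were used for depth, DESeq2 1.42.0 and edgeR 4.0.16.

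The main test was limma 3.58.1 in R 4.3.3 (eBayes with trend) on log2(normalized count + 1), with the horse as a block and Benjamini-Hochberg adjustment over 14907 genes, after a filter of 10 normalized counts in at least 4 of 8 libraries. This scale understates changes of low genes. The pairing comes from the horse letter in the labels, and libraries of 1 horse deviated from their group means together (correlation across genes 0.386 to 0.609). Alternatives were other pseudocounts, filters, scalings and thresholds, no trend, no block, the count tests and each horse left out. The tests were tried on simulated data. The genes named are the 9 genes of the rule, called list genes with up to 3 others of highest mean count per list, and the 5 profiles nearest to IL11. Members and lists were chosen with earlier results of these data known. Gene names are as in the table, and no coordinates are given, since the RefSeq table used for neighbours is of the TB-T2T assembly. All 10 symbols of the rule matched that table. A few list and marker genes are not reported here by name or value.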

Additional observations from a re-analysis of the deposited data

Results flagged for a closer look

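In 2 of 27 sets of 4 values (the untreated libraries, the treated libraries and the changes of each of 9 genes), 1 value lay far from the other 3 by Dixon's criterion, which chance alone meets in about 1 of 20 such sets. IL6 in untreated cells was one, where horse J had 195 normalized counts and the other horses at most 22.3. The other was the log2 change of IL6R, 0.0076 in horse L against -0.54 to -0.66 in the other horses.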

How the results depend on the processing

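IL11, IL6ST, OSMR and SOCS3 kept direction and call under all 17 alternatives that give a fold change, IL6R was called in none, and none of the 9 genes changed direction. LIF was the only gene called higher beside IL11, so that 1 gene was called higher with total scaling, no mean-variance trend, edgeR, an adjusted p under 0.01, or horse D, L or W left out. The log2 fold change of LIF was then 1.06 with total scaling, 1.38 without the trend and at an adjusted p under 0.01, 1.37 with edgeR, and 0.99 to 1.79 with 1 horse left out, where the genes called higher numbered 1 to 2. LIFR, at -1.25 without the replicate block and -1.10 with DESeq2 without it, was called in neither, so that 3 genes were called lower without the block. In limma the block changed no other call of the 9 genes. IL6 was called with total scaling (-2.81) and with DESeq2 and the horse (-2.69). DESeq2 without the horse gave no adjusted p for IL6, and the filter at 50 removed it. STAT3 was called with total scaling (-1.21), which moved the median of all genes to -0.31 and calls from 48.3% to 27.5% higher. Relative to that median STAT3 was at -0.90. Of the pathway genes, 10 were called with total scaling, 8 with DESeq2 and the horse, 9 with DESeq2 without it, 15 with no fold change threshold, 3 at an adjusted p under 0.01 and 4 to 8 with 1 horse left out. Over all genes 2108 were called, 2534 with total scaling, 2343 with DESeq2 and the horse and 2051 with DESeq2 without it. With no fold change threshold 4610 were called, at an adjusted p under 0.01 1116 and with 1 horse left out 1085 to 2486. Causes were not tested. Depth limits IL6 most, with 22 reads in the treated libraries together.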

Other observations

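Some further genes, chosen after their values were seen, were highest in the untreated library of horse J. CXCL10, which encodes an interferon-induced chemokine, had 33719 normalized counts in untreated J and 859 in untreated W, against at most 12.2 in any other library. IRF1 had 13523 and 1965 there, and at most 797 elsewhere. STAT2 had 20385 in untreated J and 5849 in untreated W, against 2308 to 2879 in the other libraries. Untreated W was not high in all of these genes, since SOCS1 had 779 normalized counts in untreated J and 25.4 in untreated W, and the chemokine gene CXCL8 had 315.8 and 3.04, in both cases the lowest untreated value being that of W. After TGF-β2 treatment horse J had 3.21 normalized counts of CXCL10, 364 of IRF1 and 2385 of STAT2. With horse J left out, the log2 fold changes of IL11, LIF, IL6ST, OSMR and SOCS3 were 3.48, 1.79, -1.64, -2.21 and -2.0, each still called.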
